A study of Schizosaccharomyces pombe with 9 samples.

Results

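Genes that were low in the nitrogen-starved library labelled tup11∆/tup12∆ and higher again in the nitrogen-starved library labelled tup11∆/tup12∆/php5∆ were examined in fission yeast. They were chosen on measured values: at least 5 TPM (reads per gene length, scaled to the same total in each library) in wild-type (WT) cells under nitrogen starvation, a WT value over 2 times that of the library labelled tup11∆/tup12∆, and a value of the library labelled tup11∆/tup12∆/php5∆ over 2 times that of the library labelled tup11∆/tup12∆. Of the 5323 features in the table, 51 met the rule. These were 26 genes of cytosolic ribosomal proteins, 21 other protein-coding genes and 4 tRNA genes. Both thresholds on the ratios used the same library labelled tup11∆/tup12∆, so its chance values enter both, and the nitrogen starvation values below are a description of the choice. The 6 glucose libraries took no part in it. Below, the library labelled tup11∆/tup12∆/php5∆ is called the labelled triple mutant and the library labelled tup11∆/tup12∆ the labelled double mutant.

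The strain labelled tup11∆/tup12∆/php5∆ lacks, by its label, the corepressors Tup11 and Tup12 and also Php5. The strain labelled tup11∆/tup12∆ lacks both corepressors and keeps *php5*. In the strain table of the study both corepressor genes were disrupted with *ura4* and *php5* with kanMX6. The mutant strains with these disruptions also carry *ura4-D18* and, in some, alleles such as *ade6-M26* and *leu1-32*. WT cells were the reference. Strains of that table with no disruption or tag carry *leu1-32* or *ura4-D18*, and the strain used as WT for the libraries is not named. *ura4* had 0 TPM in the WT libraries and 36.1 to 179 TPM in the mutant libraries. This difference goes with every ratio of a mutant to WT and cannot be told apart from the deletions. Cells of each strain were kept for 2 h in 1 of 3 media. These were nitrogen starvation medium with 1% glucose (MM − N), glucose starvation medium with 0.1% glucose and 3% glycerol (YED), and glucose rich medium with 6% glucose (YER). By the methods of the study, MM − N also held the amino acids that strains required, and whether these differed between strains is not given. The nitrogen starvation medium is a minimal medium and the other media contain yeast extract, so a difference between nitrogen starvation and glucose rich conditions covers the whole change of medium. Each of the 9 combinations had 1 library of poly(A)-selected RNA that did not keep the strand. No condition had a replicate, no test was run, and the 95% intervals of ratios given here cover counting error only. In these bulk samples, fewer cells that express a gene and less RNA per cell cannot be told apart.

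Tup11 and Tup12 are fission yeast relatives of the corepressor Tup1, which does not bind DNA itself and is brought to promoters by DNA-binding proteins. Php5 is a subunit of the CCAAT-binding factor, which contacts the CCAAT sequence as a complex with Php2 and Php3, and Php4 joins this complex as a repressor subunit when iron is scarce. Ribosomal protein genes are among the most strongly transcribed genes of growing yeast cells, many of them exist as pairs of nearly identical copies, and starvation lowers their transcripts.

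The upstream sequences of 4 ribosomal protein genes are shown first because these genes make up the largest group chosen. The capitals mark CAGTCACA or its reverse complement, the HomolD box of fission yeast ribosomal protein promoters. The first pair, *rpl3002* and *rpl3001*, codes for the same protein, and only *rpl3002* met the rule. All stretches are from the ASM294v3 assembly and are written 5′ to 3′ on the strand of the gene.
rpl3002: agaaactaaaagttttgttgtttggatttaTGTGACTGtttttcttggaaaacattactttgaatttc
rpl3001: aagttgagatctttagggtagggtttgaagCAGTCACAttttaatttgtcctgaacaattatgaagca
rpp203: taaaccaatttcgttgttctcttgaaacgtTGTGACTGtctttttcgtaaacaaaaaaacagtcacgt
rps1402: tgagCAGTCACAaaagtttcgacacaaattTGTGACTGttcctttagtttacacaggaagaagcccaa
*rpl3002* is on the minus strand at chrI:5095897-5095964, *rpl3001* on the minus strand at chrI:1974094-1974161, *rpp203* on the plus strand at chrI:3868985-3869052 and *rps1402* on the plus strand at chrII:1792274-1792341. The box began 55 bases before the annotated transcript start of *rpl3002*, 48 bases before that of *rpl3001* and 74 bases before that of *rpp203*, and *rps1402* held it on both strands.

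The next stretches belong to *obr1*, the member with the highest TPM in nitrogen-starved WT cells, and to *php4*, whose product is itself part of the CCAAT-binding complex. The capitals mark TTACGTAA, a sequence that the bZIP factor Pap1 binds, in *obr1* and the reverse complement of CCAAT in *php4*.
obr1: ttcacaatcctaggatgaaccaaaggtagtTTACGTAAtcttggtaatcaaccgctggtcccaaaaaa
php4: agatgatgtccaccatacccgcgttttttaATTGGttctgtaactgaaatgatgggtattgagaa
The stretch of *obr1* is on the minus strand at chrI:2095058-2095125 and that of *php4* on the minus strand at chrII:1917060-1917124, and the marked bases began 111 bases before the annotated transcript start of *obr1* and 202 bases before that of *php4*.

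In windows of 300 bases, with 250 before and 50 after the annotated transcript start, CAGTCACA was present on either strand in 16 of 26 ribosomal members (61.5%), in 71 of 111 ribosomal protein genes that were not chosen (64.0%), and in 2.68% of all protein-coding genes. AGGGTAGGG, which is close to the HomolE box of the same promoters, was in 8 of 26 ribosomal members, in 41 of 111 of the others and in 1.53% of all protein-coding genes. Chosen and unchosen ribosomal protein genes therefore carried both sequences at similar shares. CCAAT was found in 7 of 26 ribosomal members (26.9%) and in 7 of 21 other protein-coding members (33.3%), against 42.2% of all protein-coding genes. TGACGT, the core of a cAMP response element, was in 0 of 26 ribosomal members and 2 of 21 other members, against 5.91% of all genes. The stress response elements CCCCTC and CCCCGC were in 1 of 26 and 1 of 26 ribosomal members and in 0 of 21 other members each, against 2.11% and 1.10% of all genes. The GATA sequence TGATAA was in 4 of 26 ribosomal and 8 of 21 other members (background 26.8%), GATAAG in 1 of 26 and 4 of 21 (background 11.6%), and the Ste11 sequence TTCTTTGTT in 0 of both sets (background 2.00%). TTACGTAA was in 1 other member, *obr1*, and in 0.469% of all genes. TGATAA and GATAAG can overlap, and TTACGTAA equals its own reverse complement. CAGTCACA, AGGGTAGGG and TTACGTAA were added after the members were known, and a match to letters is not a bound site.

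The libraries held 36652045 to 54303622 reads. *tup11* had 0.107 to 0.418 TPM in the 6 mutant libraries, against 41.9 to 67.4 TPM in WT. *tup12* was still read, at 55.7 TPM in the nitrogen-starved labelled triple mutant and 72.7 TPM in the labelled double mutant, against 157 TPM in WT. The mutant libraries are therefore named by their labels. *php5* had 30.2 TPM in the nitrogen-starved labelled triple mutant, 124 TPM in the labelled double mutant and 126 TPM in WT, and *ura4* was at 0 in the WT libraries only. In the glucose-starved labelled triple mutant, 34.2% of all features with at least 5 TPM were over 2-fold lower than in the labelled double mutant, with a median log2 difference of -0.57 over all features, so ratios with that library are read against this shift.

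By the rule, all 51 members were over 2-fold lower in the nitrogen-starved labelled double mutant than in WT, against 3.72% of the 5005 features with at least 5 TPM in either library. The median log2 difference, on the scale of log2(TPM + 1), was -1.43 for the members and 0.011 over all features. Between the labelled triple mutant and the labelled double mutant, 43 members reached 5 TPM in the higher library and were over 2-fold higher, against 3.31% of all features, and the members' median log2 difference was 1.34. With both lower 95% bounds over 2, 42 of the 51 remained.

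**Figure D1:**
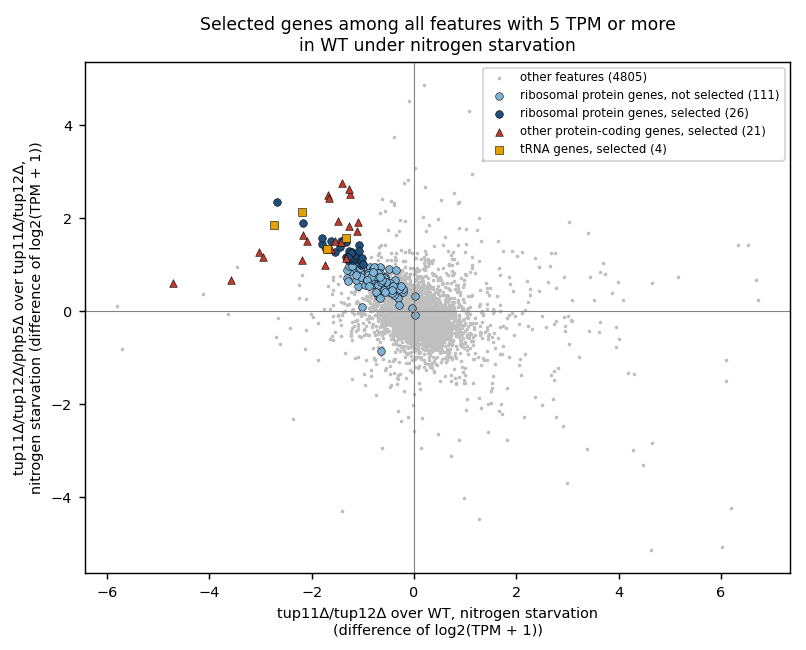
Each point is a feature with at least 5 TPM in WT under nitrogen starvation, with the log2(TPM + 1) difference between the labelled double mutant and WT on the x axis and that between the labelled triple mutant and the labelled double mutant on the y axis. The 51 members lie at the upper left, and the 26 ribosomal protein genes among them (dark circles) are the edge of a cloud that holds the other 111 (light circles).

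The thresholds cut through continuous distributions, here given for features that met the other criteria. Just inside the limit on WT over double mutant were *rps2802* with a ratio of 2.01, *rpl3401* with 2.03 and *rps001* with 2.05. Just outside it were *rlp7* with 1.79, SPATRNACYS.02 with 1.75 and *ubi3*, which codes for ubiquitin fused to a ribosomal protein, with 1.67. For the ratio of the labelled triple mutant to the labelled double mutant, *rps001* with 2.00, *rps2802* with 2.02 and *adg1* with 2.14 were just inside, and *alr2* with 1.96, *rpl2101* with 1.95 and *rpl1801* with 1.95 just outside. In WT TPM, SPBTRNAGLN.04 at 5.20, SPAPB15E9.02c at 5.35 and SPATRNASER.04 at 5.48 just passed, and SPATRNAVAL.04 at 4.30, *rec15* at 4.17 and SPBCPT2R1.01c at 4.0 did not. Ribosomal protein genes thus stood on both sides of the limit on triple over double mutant.

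Most members were not genes that nitrogen starvation raises. In WT, 31 of the 51 were over 2-fold lower in nitrogen-starved than in glucose rich cells, against 10.8% of all features, and 11 were over 2-fold higher, against 18.1%. All 26 ribosomal members were among the lower ones, with ratios between 0.107 and 0.355. The other protein-coding members were split, with 7 over 2-fold higher and 5 over 2-fold lower. In WT under glucose starvation, of the 44 members at 5 TPM or more in at least 1 of both libraries, 26 were over 2-fold lower than under glucose rich conditions (background 9.38%) and 2 over 2-fold higher (background 19.2%). The gene lists for mating and pheromone response, meiosis, nitrogen uptake and autophagy, the processes that nitrogen starvation is known to start in fission yeast, held 112 measured genes, and 0 of them was a member. Members made up only 0.958% of all features, so this count of 0 does not set the lists apart. The name nitrogen-starvation genes thus fits the 11 members that were higher in nitrogen-starved WT cells, the 4 tRNA genes among them, and no ribosomal member.

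Of 17 gene lists, 5 held a member, and they are described with their members. The lists without one had other profiles in the nitrogen-starved labelled double mutant relative to WT, here given as genes over 2-fold lower and higher of those with at least 5 TPM. Over all features 3.72% were lower and 5.31% higher in this comparison. Mating and pheromone genes had 0 lower and 13 higher of 32, meiosis genes 0 lower and 4 higher of 20, and autophagy genes 0 lower and 1 higher of 23. Genes of nitrogen uptake and scavenging had 4 lower and 4 higher of 30, and 0 of them were over 2-fold higher in the labelled triple than in the labelled double mutant (background 3.31%). Carbohydrate use and transport genes had 0 lower and 19 higher of 39, phosphate genes 0 lower and 4 higher of 8, and copper and zinc genes 0 lower and 2 higher of 15. Thiamine genes had 0 lower and 0 higher of 11, cell cycle and replication genes 0 lower and 0 higher of 32, and genes of amino acid and nucleotide synthesis 1 lower and 1 higher of 56. Histone genes came nearest to the members in this comparison, with 6 lower and 0 higher of 10. Between the labelled triple and the labelled double mutant 0 of 10 were over 2-fold higher (background 3.31%), with a median log2 difference of -0.079.

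The ribosomal members had a common profile: they were low in the nitrogen-starved labelled double mutant and close to WT in its glucose rich counterpart. They code for 16 large subunit proteins, 8 small subunit proteins and 2 stalk proteins. Their TPM under nitrogen starvation lay between 48.4 and 1804 (median 501) in the labelled triple mutant, between 8.71 and 821 (median 207) in the labelled double mutant, and between 61.3 and 1667 (median 512) in WT. Under glucose starvation the medians were 676 TPM in the labelled triple mutant, 668 TPM in the labelled double mutant and 976 TPM in WT. Under glucose rich conditions they were 1905 TPM in the labelled triple mutant, 2269.9 TPM in the labelled double mutant and 2272 TPM in WT. The median differences between strains were thus wide under nitrogen starvation and small under glucose rich conditions.

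**Figure D2:**
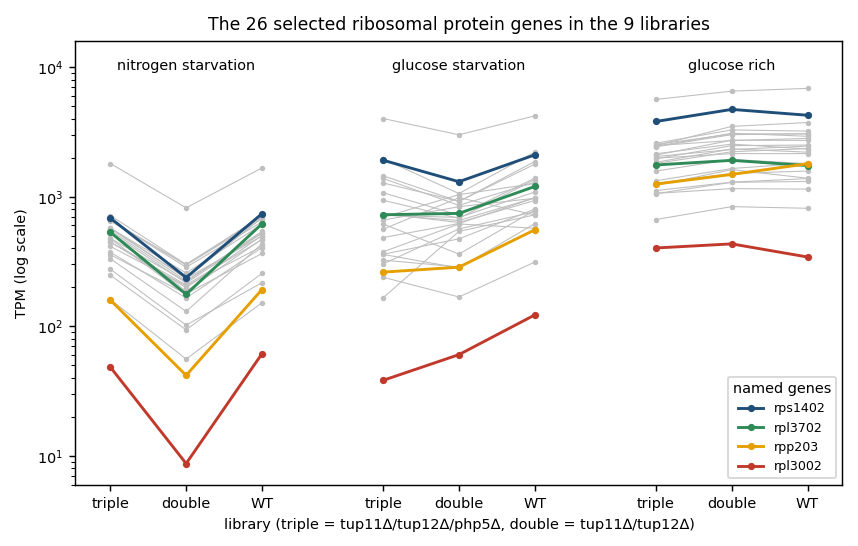
Each line joins the TPM (log axis) of 1 ribosomal member in the labelled triple mutant, the labelled double mutant and WT, in 3 media, and the 4 named genes are coloured. All 26 lines dip at the middle library under nitrogen starvation, which the rule fixed, and run nearly level under glucose rich conditions.

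*rpl3002* (60S protein eL30) had 48.4 TPM in the labelled triple mutant, 8.71 TPM in the labelled double mutant and 61.3 TPM in WT under nitrogen starvation. It was the lowest of the ribosomal members in each of these libraries, with a ratio of 0.142 (95% interval 0.117 to 0.172) for double mutant over WT and of 5.55 (95% interval 4.57 to 6.79) for triple over double mutant. Under glucose rich conditions it had 402 TPM in the labelled triple mutant, 432 TPM in the labelled double mutant and 342 TPM in WT, a ratio of 1.26 (95% interval 1.23 to 1.30) for double mutant over WT, which is the highest of the ribosomal members. Under glucose starvation it had 38.3 TPM in the labelled triple mutant, 60.4 TPM in the labelled double mutant and 122 TPM in WT, so that both mutant libraries were below WT.

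*rpp203*, which codes for an acidic P2 protein of the ribosomal stalk, had 159 TPM in the labelled triple mutant, 41.8 TPM in the labelled double mutant and 192 TPM in WT under nitrogen starvation. Its ratio of 0.218 (95% interval 0.198 to 0.238) for double mutant over WT was the second lowest of the ribosomal members, after *rpl3002*. The glucose starvation values of *rpp203* were 262 TPM in the labelled triple mutant, 286 TPM in the labelled double mutant and 556 TPM in WT. Its glucose rich values were 1252 TPM in the labelled triple mutant, 1486 TPM in the labelled double mutant and 1797 TPM in WT. In both glucose media the labelled triple mutant was the lowest. *rpp101*, which codes for the partner protein P1, had 332 TPM in the labelled triple mutant, 130.2 TPM in the labelled double mutant and 433 TPM in WT under nitrogen starvation. *rpp101* had 1806 TPM in the labelled triple mutant, 2224 TPM in the labelled double mutant and 2353 TPM in WT in glucose rich cells. Both stalk genes were lower than WT in the labelled double mutant in every medium, though by little under glucose rich conditions.

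*rpl3401* (60S protein eL34), the most abundant ribosomal member, had 1804 TPM in the labelled triple mutant, 821 TPM in the labelled double mutant and 1667 TPM in WT under nitrogen starvation. *rps1402* (40S protein uS11) had 684 TPM in the labelled triple mutant, 238 TPM in the labelled double mutant and 739 TPM in WT. *rpl3702* (60S protein eL37) had 531 TPM in the labelled triple mutant, 177 TPM in the labelled double mutant and 617 TPM in WT. In these genes the labelled triple mutant stood near WT and the labelled double mutant far below both. *rpl35A01* had 716 TPM in the labelled triple mutant, 299.8 TPM in the labelled double mutant and 710.0 TPM in WT. For *rps2201* (40S protein uS8) the values were 567 TPM in the labelled triple mutant, 235 TPM in the labelled double mutant and 689 TPM in WT. *rps602*, whose product is the phosphorylated 40S protein eS6, had 659 TPM in the labelled triple mutant, 297 TPM in the labelled double mutant and 674 TPM in WT. Of these 6 genes, *rpl3401* and *rpl35A01* were slightly above WT in the labelled triple mutant and the others below. *rpl2001* (60S protein eL20) had 648 TPM in the labelled triple mutant, 299.7 TPM in the labelled double mutant and 697 TPM in WT under nitrogen starvation. *rps2302* (40S protein uS12) had 658 TPM in the labelled triple mutant, 285 TPM in the labelled double mutant and 638 TPM in WT. The remaining ribosomal members not described singly, *rpl1902*, *rpl3602*, *rpl2801*, *rps802*, *rpl2502*, *rpl502*, *rpl1502*, *rpl2702*, *rpl702* and *rpl802*, had ratios of double mutant to WT between 0.367 and 0.472 under nitrogen starvation and between 0.908 and 1.09 in glucose rich cells.

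In the glucose libraries, which the rule did not use, the ribosomal members were near WT in the labelled double mutant under glucose rich conditions: the ratios lay between 0.827 and 1.26, with a median of 0.996, against 0.877 over all features. For triple over double mutant in the same medium they lay between 0.711 and 0.930, so 26 of 26 were lower in the labelled triple mutant, whereas the median over all features was 1.09. Under glucose starvation 24 of 26 were below WT in the labelled double mutant, with a median ratio of 0.620 against 0.796 over all features, and 5 were over 2-fold lower. The exceptions were *rpl3802*, which had 561 TPM in the labelled triple mutant, 984 TPM in the labelled double mutant and 724 TPM in WT, and *rps2802*, which had 376 TPM in the labelled triple mutant, 616 TPM in the labelled double mutant and 571 TPM in WT. For triple over double mutant under glucose starvation the median ratio was 1.12, against 0.638 over all features, and *rps2601* alone was over 2-fold lower, with 166 TPM in the labelled triple mutant, 540.0 TPM in the labelled double mutant and 724 TPM in WT. Of the ribosomal protein genes not chosen, 93 of 111 were below WT in the glucose-starved labelled double mutant. Their median ratio was 0.698, and 5 were over 2-fold lower. For triple over double mutant in that medium their median ratio was 1.10. In glucose rich cells 108 of these 111 genes were also lower in the labelled triple than in the labelled double mutant, and 3 were higher. Their median ratio was 0.836, against 0.816 for the ribosomal members, so this direction did not set the chosen genes apart. Of the same 111 genes, 31 were below WT in the glucose rich labelled double mutant and 80 above it, against 14 and 12 of the 26 ribosomal members. None of the ribosomal members was over 2-fold higher in the labelled triple than in the labelled double mutant in either glucose medium on the TPM scale. With size factors from the median of ratios the glucose starvation counts changed: 11 of 26 were then over 2-fold higher in the labelled triple mutant, and 0 over 2-fold lower in the labelled double mutant than in WT, with 22 still below it. That scaling moved the median log2 difference of all features by 0.58 for triple over double mutant and by 0.29 for double mutant over WT. In glucose rich cells all 26 remained lower in the labelled triple mutant under it, while 1 of 26 was below WT in the labelled double mutant.

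The rule took its ribosomal members from a family that differed between these libraries as a whole. Of the 137 genes, 135 were lower in the nitrogen-starved labelled double mutant than in WT and 135 were higher in the labelled triple mutant than in the labelled double mutant. The 111 genes that were not chosen had median ratios of 1.63 for triple over double mutant and 0.586 for double mutant over WT, and 22 of them passed the limit against WT without passing the other. Summed over the family, ribosomal protein genes took 12.0% of TPM in the nitrogen-starved labelled triple mutant, 7.45% in the labelled double mutant and 12.4% in WT. Under glucose rich conditions the shares were 34.0% in the labelled triple mutant, 40.4% in the labelled double mutant and 38.7% in WT. Both counts of 135 use the same labelled double mutant library. The part that this difference of the whole family had in the choice of the 26 was not tested.

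Genes for making ribosomes were compared by their medians, because their counts of 2-fold differences lay near the background. In a list of ribosome biogenesis factors, 0 of 37 measured genes were over 2-fold lower (background 3.72%) in the nitrogen-starved labelled double mutant than in WT. None was over 2-fold higher (background 5.31%), and the median log2 difference was -0.21. For triple over double mutant 0 were over 2-fold higher (background 3.31%), with a median of 0.46. These medians had the signs of the ribosomal members at smaller size.

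Copies of the same ribosomal protein differed. The 137 genes form 76 families by name, of which 56 have more than 1 copy, and the 26 members came from 26 different families, each with 2 or more copies. No family had more than 1 member, and 0 of the 20 single-copy families had one. In 23 families of 2 copies, the member was the copy with less TPM in nitrogen-starved WT cells in 20 cases. That library took part in the rule, so this count describes the choice. In WT under glucose rich conditions, which the rule did not use, the member was the lower copy in 13 of the 23 cases. For *rpl3001* the ratio of double mutant to WT under nitrogen starvation was 0.587, at 785 TPM in the labelled double mutant and 1337 TPM in WT. *rps1401* had 256 TPM in the labelled triple mutant, 461 TPM in the labelled double mutant and 722 TPM in WT, so that, unlike its copy *rps1402*, it was lowest in the labelled triple mutant. *rpl35A02*, the other copy of *rpl35A01*, had nearly level values of 1207 TPM in the labelled triple mutant, 1269 TPM in the labelled double mutant and 1256 TPM in WT under nitrogen starvation. These copies were picked after their values were seen. In the glucose libraries the member had the lower ratio of double mutant to WT in 17 of 23 families under glucose starvation and in 11 of 23 under glucose rich conditions.

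**Figure D3:**
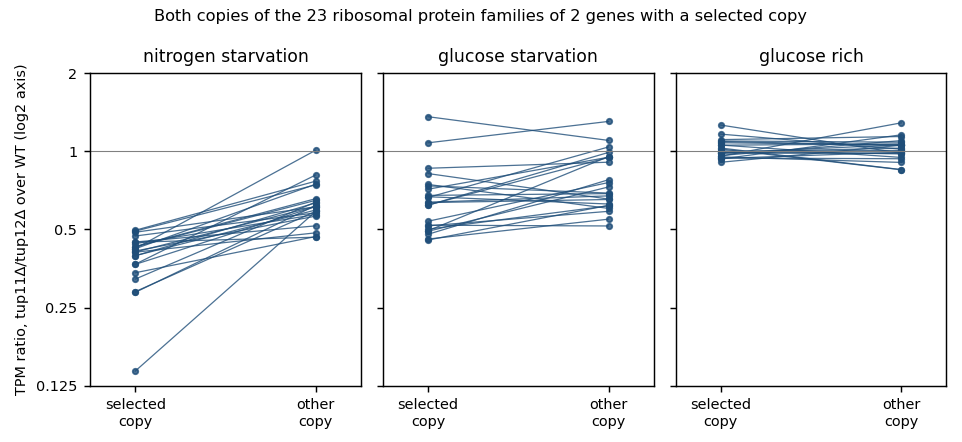
For the 23 families of 2 ribosomal protein genes with a member, lines join the TPM ratio of the labelled double mutant to WT (log2 axis) of the selected copy and of the other copy, in 3 media. Under nitrogen starvation all selected copies lie below 0.5 by the rule, and under glucose rich conditions both copies lie near 1.

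Reads that fit both copies cannot be assigned with certainty, and the setting used for them is not given in the sources used here. Over 5% of the 50-base windows of the coding sequence occurred elsewhere in the ASM294v3 genome in 6 ribosomal members, among them *rps1402* with 14.0%, *rpl3702* with 9.69% and *rpl1202* with 96.4%. The values of *rpl1202*, 161 TPM in the labelled triple mutant, 55.8 TPM in the labelled double mutant and 152 TPM in WT under nitrogen starvation, are therefore uncertain as to the copy. *rpl3002*, *rpp203* and *rpp101* had 0% of such windows. The coding sequence of *rpp203* is, however, overlapped in full by another annotated gene, whose reads cannot be told apart without the strand.

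The 21 other protein-coding members differed from the ribosomal members mainly in glucose rich cells. There 19 of 21 were below WT in the labelled double mutant, with a median ratio of 0.462, against 14 of 26 ribosomal members. Under glucose starvation most genes of both sets were below WT, 19 of 21 other members and 24 of 26 ribosomal members. The median ratio of the 21 other members was then 0.398, against 0.620 for the ribosomal members. In both media 18 of 21 were below WT (85.7%), against 57.6% of all features, and of the 16 whose higher library reached 5 TPM in both media 8 were over 2-fold lower in both, against 0.816% of all features with this minimum. For triple over double mutant, 15 of 21 were higher in both media (71.4%), against 16.8% of all features. These last comparisons share the labelled double mutant with those against WT. With size factors from the median of ratios 18 of 21 were below WT in glucose rich cells and 17 under glucose starvation, so the direction did not rest on the TPM scale.

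Counted over all 51 members by the 2-fold rule, with a minimum of 5 TPM in 1 of both libraries, 8 of 43 were lower and 0 higher in the labelled double mutant than in WT under glucose rich conditions, against 1.26% and 3.51% of all features. Under glucose starvation 17 of 43 were lower and 0 higher, against 6.16% and 4.08%. For triple over double mutant, 8 of 42 were higher and 2 lower under glucose rich conditions, against 4.28% and 1.4%. Under glucose starvation 8 of 40 were higher and 3 lower, against 5.31% and 34.2%. The genes over 2-fold higher in either of the last comparisons were all outside the ribosomal group, and 35 of the 51 members had at least 5 TPM in each glucose library.

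**Figure D4:**
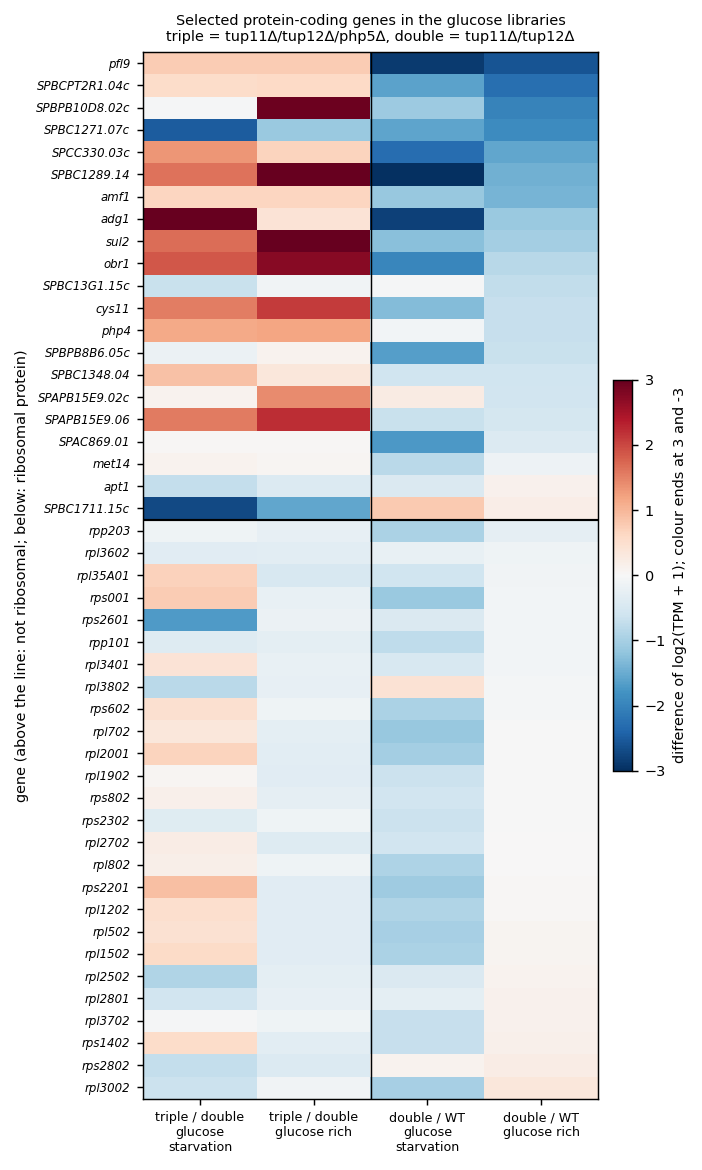
Each row is 1 of the 47 protein-coding members and each column a log2(TPM + 1) difference in the glucose libraries, red for higher and blue for lower in the first-named library, with the colour ending at 3 and −3. Rows above the line, the 21 genes outside the ribosomal group, are mostly blue for double mutant over WT and mostly red for triple over double mutant, and the 26 ribosomal rows are pale under glucose rich conditions.

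*obr1* (SPAC3C7.14c), an NAD(P)H dehydrogenase known as a target of the oxidative stress factor Pap1, was the most abundant member in nitrogen-starved WT cells. It had 3299.7 TPM in the labelled triple mutant, 585 TPM in the labelled double mutant and 1891 TPM in WT under nitrogen starvation. Its values under glucose starvation were 2389 TPM in the labelled triple mutant, 653 TPM in the labelled double mutant and 2539 TPM in WT. The glucose rich values were 6186 TPM in the labelled triple mutant, 938 TPM in the labelled double mutant and 1680.1 TPM in WT. The labelled double mutant was the lowest in each medium, with ratios to WT of 0.257 (95% interval 0.253 to 0.261) under glucose starvation and 0.559 (95% interval 0.552 to 0.566) in glucose rich cells. The labelled triple mutant exceeded WT under nitrogen starvation and in glucose rich cells but not under glucose starvation. In a list of heat shock and stress genes, of which *obr1* is one, 3 of 39 were over 2-fold lower (background 3.72%) and 8 over 2-fold higher (background 5.31%) in the nitrogen-starved labelled double mutant than in WT. For triple over double mutant under nitrogen starvation, 6 of 39 were over 2-fold higher (background 3.31%) and 0 lower (background 3.21%).

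A group of 4 members belongs to sulfur supply. *sul2*, a sulfate transporter, had 111 TPM in the labelled triple mutant, 15.6 TPM in the labelled double mutant and 42.9 TPM in WT under nitrogen starvation. After glucose starvation it had 47.1 TPM in the labelled triple mutant, 13.9 TPM in the labelled double mutant and 34.8 TPM in WT. Its glucose rich values were 72.1 TPM in the labelled triple mutant, 6.04 TPM in the labelled double mutant and 13.3 TPM in WT. The labelled double mutant was below WT and the labelled triple mutant above WT in each medium. The ratio of triple to double mutant was 3.38 (95% interval 3.21 to 3.56) under glucose starvation and 11.9 (95% interval 11.2 to 12.7) in glucose rich cells.

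*cys11*, a cysteine synthase, had 252 TPM in the labelled triple mutant, 114 TPM in the labelled double mutant and 286 TPM in WT under nitrogen starvation. It had 146 TPM in the labelled triple mutant, 50.1 TPM in the labelled double mutant and 124 TPM in WT under glucose starvation. The glucose rich values of *cys11* were 474 TPM in the labelled triple mutant, 110.5 TPM in the labelled double mutant and 179 TPM in WT. The labelled double mutant was again the lowest in each medium, and the labelled triple mutant was above WT in both glucose media. *met14*, the adenylyl-sulfate kinase that prepares sulfate for reduction, had 242 TPM in the labelled triple mutant, 85.9 TPM in the labelled double mutant and 233 TPM in WT under nitrogen starvation. Its glucose rich values were close to each other, 774 TPM in the labelled triple mutant, 742 TPM in the labelled double mutant and 819.7 TPM in WT. Under glucose starvation both mutant libraries were below WT, with 147 TPM in the labelled triple mutant, 137 TPM in the labelled double mutant and 241 TPM in WT.

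SPBPB10D8.02c is annotated as an arylsulfatase, an enzyme that releases sulfate from sulfate esters. It had 20.6 TPM in the labelled triple mutant, 2.76 TPM in the labelled double mutant and 7.96 TPM in WT under nitrogen starvation. It had 50.4 TPM in the labelled triple mutant, 5.68 TPM in the labelled double mutant and 25.7 TPM in WT in glucose rich cells, the same order of libraries. Under glucose starvation the labelled triple mutant was not above the labelled double mutant, with 2.78 TPM in the labelled triple mutant, 2.86 TPM in the labelled double mutant and 7.19 TPM in WT.

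In the list of sulfur and methionine genes, 4 of 22 were over 2-fold lower (background 3.72%) and 1 over 2-fold higher (background 5.31%) in the nitrogen-starved labelled double mutant than in WT. The higher one was *str3*, which is annotated as a siderophore iron transporter. Of the same list 7 were over 2-fold higher (background 3.31%) and 0 lower (background 3.21%) in the labelled triple mutant than in the labelled double mutant. The median log2 differences were -0.41 for double mutant over WT and 0.62 for triple over double mutant. Only *cys11* and *met14* of this list met both limits. Other genes of the list were high in the labelled triple mutant without being low in the labelled double mutant, and 2 were picked after their values were seen. *sul1*, the other sulfate transporter, had 229 TPM in the labelled triple mutant, 35.0 TPM in the labelled double mutant and 29.9 TPM in WT under nitrogen starvation. *met17*, a homocysteine synthase, had 448 TPM in the labelled triple mutant, 75.8 TPM in the labelled double mutant and 43.7 TPM in WT. For both genes the labelled double mutant was not below WT.

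The most abundant genes of this list that were not members did not meet both limits under nitrogen starvation. Only *sam1* of them passed the limit against WT, with a ratio of double mutant to WT of 0.442. Its ratio of triple to double mutant was 1.56. *sam1*, the S-adenosylmethionine synthetase, had 1454 TPM in the labelled triple mutant, 933 TPM in the labelled double mutant and 2111 TPM in WT. *met26*, a homocysteine methyltransferase, had 1713 TPM in the labelled triple mutant, 1118 TPM in the labelled double mutant and 1557 TPM in WT. *pmp20*, annotated as a thioredoxin-related chaperone, had 409 TPM in the labelled triple mutant, 618 TPM in the labelled double mutant and 1002 TPM in WT. The labelled triple mutant was the lowest for *pmp20*, and the labelled double mutant for *sam1* and *met26*. *zip1*, a transcription factor gene, had 637 TPM in the labelled triple mutant, 679.8 TPM in the labelled double mutant and 886 TPM in WT, again with the lowest value in the labelled triple mutant.

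*php4*, whose product joins the CCAAT-binding factor as its repressor subunit, had 149.8 TPM in the labelled triple mutant, 39.0 TPM in the labelled double mutant and 84.7 TPM in WT under nitrogen starvation. The glucose starvation values were 131 TPM in the labelled triple mutant, 59.2 TPM in the labelled double mutant and 62.8 TPM in WT. Glucose rich cells had 88.4 TPM in the labelled triple mutant, 38.5 TPM in the labelled double mutant and 62.8 TPM in WT. The labelled triple mutant was the highest in each medium. The ratio of double mutant to WT was 0.613 (95% interval 0.582 to 0.646) in glucose rich cells and 0.943 (95% interval 0.894 to 0.994) under glucose starvation, where it turned to 1.18 with size factors from the median of ratios. In a list of iron genes, only *php4*, 1 of 30, was over 2-fold lower (background 3.72%) and 8 were over 2-fold higher (background 5.31%) in the nitrogen-starved labelled double mutant than in WT. For triple over double mutant under nitrogen starvation, 9 of 30 were over 2-fold higher (background 3.31%) and 3 lower (background 3.21%). In the list of CCAAT-binding factor and corepressor genes 3 of 11 were over 2-fold lower and 2 higher against the same backgrounds, and the lower ones were *php4* and the genes of the deletions, *tup11* and *tup12*.

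Genes of the cell surface differed in how far the labelled triple mutant stood from WT. *adg1*, which codes for a cell surface glycoprotein, had 300.2 TPM in the labelled triple mutant, 140.2 TPM in the labelled double mutant and 644 TPM in WT under nitrogen starvation. In glucose rich cells the order was the same, with 187 TPM in the labelled triple mutant, 139 TPM in the labelled double mutant and 302 TPM in WT. Under glucose starvation the labelled triple mutant was the highest, with 69.5 TPM in the labelled triple mutant, 4.73 TPM in the labelled double mutant and 38.7 TPM in WT. The ratio of triple to double mutant was 14.7 (95% interval 12.3 to 17.7) in that medium, and that of double mutant to WT 0.122 (95% interval 0.101 to 0.147).

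*pfl9* codes for a flocculin-like glycoprotein of the DIPSY family, proteins of the cell wall. It had 1.11 TPM in the labelled triple mutant, 0.314 TPM in the labelled double mutant and 14.6 TPM in WT under nitrogen starvation. With glucose starvation it had 1.039 TPM in the labelled triple mutant, 0.211 TPM in the labelled double mutant and 7.81 TPM in WT. Glucose rich cells had 1.84 TPM in the labelled triple mutant, 0.664 TPM in the labelled double mutant and 9.09 TPM in WT. Both mutant libraries were thus far below WT in every medium, and the labelled double mutant was the lowest. SPBC1289.14, annotated as adducin, a family of cytoskeletal proteins, had 23.9 TPM in the labelled triple mutant, 3.06 TPM in the labelled double mutant and 8.86 TPM in WT under nitrogen starvation. In glucose rich cells it had 15.7 TPM in the labelled triple mutant, 0.445 TPM in the labelled double mutant and 2.92 TPM in WT, and its ratio of triple to double mutant, 35.2 (95% interval 24.4 to 52.4), was the largest of the members in this medium. Under glucose starvation WT was the highest, with 9.44 TPM in the labelled triple mutant, 2.39 TPM in the labelled double mutant and 42.0 TPM in WT.

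In the list of cell wall and separation genes, 5 of 40 with at least 5 TPM were over 2-fold lower (background 3.72%) and 4 higher (background 5.31%) in the nitrogen-starved labelled double mutant than in WT, and 1 was over 2-fold higher in the labelled triple than in the labelled double mutant (background 3.31%). The most abundant genes of the list were not members. *gas1*, a glucanosyltransferase, had 694 TPM in the labelled triple mutant, 634 TPM in the labelled double mutant and 783 TPM in WT under nitrogen starvation. *psu1* had 373 TPM in the labelled triple mutant, 461 TPM in the labelled double mutant and 774 TPM in WT, and *exg1*, a glucanase, had 307 TPM in the labelled triple mutant, 441 TPM in the labelled double mutant and 548 TPM in WT. *cfh4* had 426 TPM in the labelled triple mutant, 555 TPM in the labelled double mutant and 598 TPM in WT. For *psu1*, *exg1* and *cfh4* the labelled triple mutant was the lowest, and for *gas1* the labelled double mutant.

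**Figure D5:**
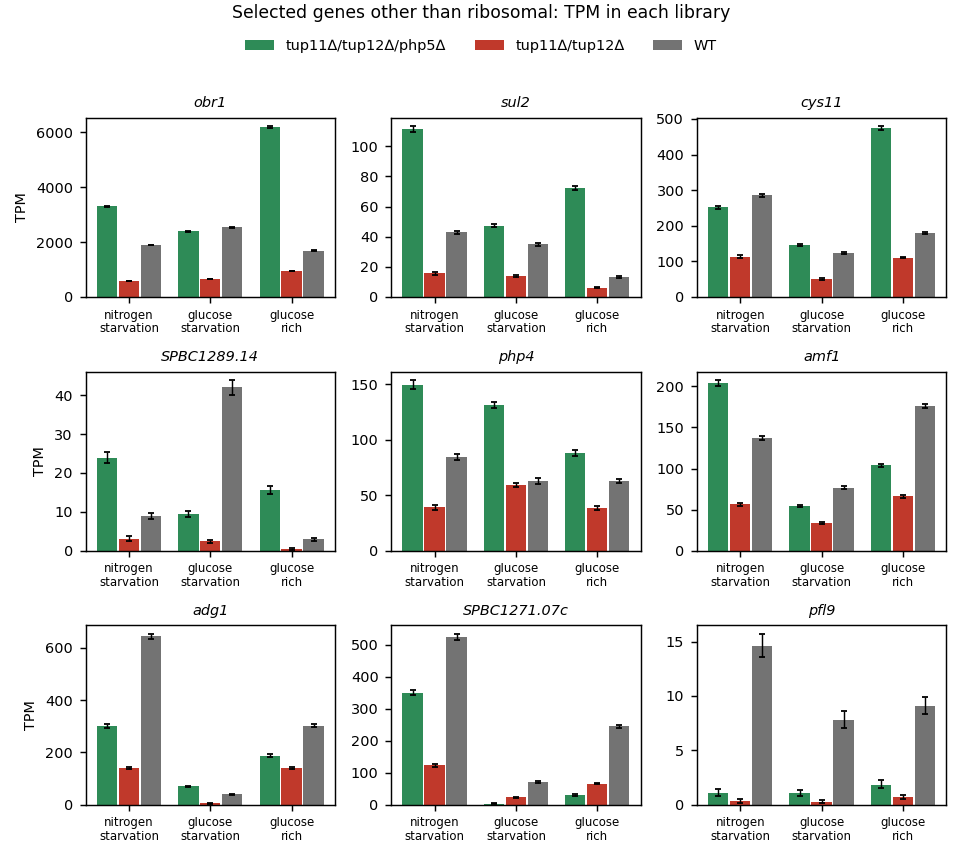
Bars give the TPM of 9 members outside the ribosomal group in the labelled triple mutant, the labelled double mutant and WT in 3 media, and black bars give the 95% Poisson interval of the reads. For *obr1*, *sul2* and *cys11* the labelled double mutant is the lowest in all 3 media, and for SPBC1271.07c and *pfl9* the labelled triple mutant stays below WT.

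Metabolic enzymes and a transporter made up a further group. *amf1*, annotated as a transporter, had 204 TPM in the labelled triple mutant, 56.3 TPM in the labelled double mutant and 137 TPM in WT under nitrogen starvation. The glucose starvation values of *amf1* were 54.1 TPM in the labelled triple mutant, 34.2 TPM in the labelled double mutant and 76.7 TPM in WT. Its glucose rich values were 104 TPM in the labelled triple mutant, 66.2 TPM in the labelled double mutant and 176 TPM in WT. The labelled double mutant was the lowest throughout, and the labelled triple mutant exceeded WT only under nitrogen starvation. SPCC330.03c, annotated as a cytochrome b5 reductase, had 62.9 TPM in the labelled triple mutant, 18.3 TPM in the labelled double mutant and 40.8 TPM in WT under nitrogen starvation. With glucose starvation SPCC330.03c had 14.8 TPM in the labelled triple mutant, 5.28 TPM in the labelled double mutant and 29.4 TPM in WT. It had 28.6 TPM in the labelled triple mutant, 17.7 TPM in the labelled double mutant and 54.3 TPM in WT in glucose rich cells. The libraries stood in the same order as for *amf1* in each medium.

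*apt1*, the adenine phosphoribosyltransferase of purine salvage, had 70.6 TPM in the labelled triple mutant, 24.1 TPM in the labelled double mutant and 72.2 TPM in WT under nitrogen starvation. Glucose rich cells had 560.0 TPM in the labelled triple mutant, 743 TPM in the labelled double mutant and 678 TPM in WT. Its glucose starvation values were 54.8 TPM in the labelled triple mutant, 91.2 TPM in the labelled double mutant and 124 TPM in WT. In both glucose media the labelled triple mutant was the lowest, and in glucose rich cells the labelled double mutant was above WT.

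SPBC1271.07c, annotated as an N-acetyltransferase, was below WT in the labelled double mutant in all media but was higher in the labelled triple mutant only under nitrogen starvation. There it had 349.8 TPM in the labelled triple mutant, 123 TPM in the labelled double mutant and 525 TPM in WT. Under glucose starvation it had 3.19 TPM in the labelled triple mutant, 22.7 TPM in the labelled double mutant and 69.7 TPM in WT. Its values in glucose rich cells were 29.9 TPM in the labelled triple mutant, 65.8 TPM in the labelled double mutant and 244 TPM in WT. The ratio of triple to double mutant was 0.140 (95% interval 0.113 to 0.173) under glucose starvation and 0.455 (95% interval 0.420 to 0.492) in glucose rich cells, on the other side of 1 from nitrogen starvation. SPBPB8B6.05c, annotated as an L-asparaginase, which splits asparagine into aspartate and ammonia, had 11.1 TPM in the labelled triple mutant, 3.82 TPM in the labelled double mutant and 13.9 TPM in WT under nitrogen starvation. In glucose rich cells it had 29.9 TPM in the labelled triple mutant, 27.6 TPM in the labelled double mutant and 44.5 TPM in WT, where both mutant libraries were below WT. Under glucose starvation the labelled triple mutant was the lowest for SPBPB8B6.05c, with 0.966 TPM in the labelled triple mutant, 1.23 TPM in the labelled double mutant and 6.01 TPM in WT.

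SPAC869.01, annotated as an amidase, had the largest ratio of nitrogen-starved to glucose rich WT cells among the protein-coding members, with 29.0 TPM under nitrogen starvation and 0.361 TPM in glucose rich cells. Under nitrogen starvation it had only 0.754 TPM in the labelled triple mutant and 0.147 TPM in the labelled double mutant. Its ratio of double mutant to WT, 0.00506 (95% interval 0.00243 to 0.00933), was the lowest of the protein-coding members, and that of triple mutant to WT was 0.0260 (95% interval 0.0196 to 0.0339). Both mutant libraries were thus almost without this transcript. Under glucose starvation it had 2 reads in the labelled triple mutant, 0 reads in the labelled double mutant and 2.29 TPM in WT, and its TPM in WT was at least 71.2-fold higher than 3 reads would give in the labelled double mutant. SPBC1348.04, annotated as a methyltransferase, had 3.93 TPM in the labelled triple mutant, 0.587 TPM in the labelled double mutant and 6.11 TPM in WT under nitrogen starvation and at most 0.834 TPM in the glucose libraries.

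The uncharacterized members were mostly low. SPAPB15E9.06 had 30.1 TPM in the labelled triple mutant, 7.14 TPM in the labelled double mutant and 21.9 TPM in WT under nitrogen starvation. It had 40.4 TPM in the labelled triple mutant, 7.88 TPM in the labelled double mutant and 11.8 TPM in WT in glucose rich cells. Its neighbour SPAPB15E9.02c had 9.82 TPM in the labelled triple mutant, 0.998 TPM in the labelled double mutant and 5.35 TPM in WT under nitrogen starvation. The glucose rich values of SPAPB15E9.02c were 9.13 TPM in the labelled triple mutant, 2.78 TPM in the labelled double mutant and 4.68 TPM in WT. The labelled triple mutant was the highest and the labelled double mutant the lowest for both neighbours under nitrogen starvation and in glucose rich cells. Under glucose starvation SPAPB15E9.06 kept this order, with 20.7 TPM in the labelled triple mutant, 6.41 TPM in the labelled double mutant and 10.8 TPM in WT. For SPAPB15E9.02c the labelled double mutant was then above WT, with 3.09 TPM in the labelled triple mutant, 2.82 TPM in the labelled double mutant and 2.24 TPM in WT. SPBCPT2R1.04c had 4.56 TPM in the labelled triple mutant, 1.49 TPM in the labelled double mutant and 18.3 TPM in WT under nitrogen starvation. SPBC13G1.15c had 3.30 TPM in the labelled triple mutant, 0.765 TPM in the labelled double mutant and 13.4 TPM in WT, and for both of these genes the labelled triple mutant stayed below WT in every medium. SPBC1711.15c, a gene of 99 bases, had 6.19 TPM in the labelled triple mutant, 2.60 TPM in the labelled double mutant and 11.0 TPM in WT under nitrogen starvation. Under glucose starvation the labelled double mutant was the highest for SPBC1711.15c, with 2.00 TPM in the labelled triple mutant, 18.6 TPM in the labelled double mutant and 10.4 TPM in WT. It was also the highest in glucose rich cells, with 11.4 TPM in the labelled triple mutant, 35.5 TPM in the labelled double mutant and 30.9 TPM in WT.

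The 4 tRNA members rest on few reads. SPATRNALEU.02 had 9 reads in the nitrogen-starved labelled triple mutant, 0 in the labelled double mutant and 25 in WT. SPBTRNAGLN.04 had 15 reads in the labelled triple mutant, 1 in the labelled double mutant and 20 in WT. SPATRNATHR.03 had 13 reads in the labelled triple mutant, 3 in the labelled double mutant and 22 in WT. For SPATRNASER.04 the reads were 23 in the labelled triple mutant, 5 in the labelled double mutant and 24 in WT. Summed over all tRNA genes of the table, TPM was 148 in the labelled triple mutant, 52.9 in the labelled double mutant and 158 in WT under nitrogen starvation, so the whole class was lowest in the labelled double mutant, as these 4 genes were by the rule. Transfer RNA has no poly(A) tail and is not the target of the library method, and its part in the choice was not tested.

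A value over 2 times that of the labelled double mutant did not always mean the level of WT. Of the 51 members, 42 were within 2-fold of WT in the nitrogen-starved labelled triple mutant, 3 were over 2-fold higher (background 6.26%) and 6 over 2-fold lower (background 4.25%). All 26 ribosomal members were within 2-fold, with ratios to WT between 0.768 and 1.27 and a median of 0.964. Of the 111 ribosomal protein genes not chosen, all but 1 were also within 2-fold, with a median ratio of 0.959. The members over 2-fold higher were *sul2*, SPBPB10D8.02c and SPBC1289.14. Their ratios were 2.59 (95% interval 2.51 to 2.68) for *sul2*, 2.59 (95% interval 2.37 to 2.84) for SPBPB10D8.02c and 2.70 (95% interval 2.42 to 3.02) for SPBC1289.14. The members over 2-fold lower were SPAC869.01, *pfl9*, SPBC13G1.15c, SPBCPT2R1.04c, *adg1* and SPATRNALEU.02. For *pfl9* the ratio was 0.0756 (95% interval 0.0549 to 0.102). Of the 43 members with at least 5 TPM in 1 of both libraries under glucose starvation, 14 were over 2-fold lower and 1 was over 2-fold higher in the labelled triple mutant than in WT, against 48.9% and 5.32% of all features, so the share of lower members was under the background. In glucose rich cells 5 of 45 were lower and 5 higher, against 3.31% and 6.93%.

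Some members lie near each other or near chromosome ends. In the ASM294v3 assembly, 7 of 51 members (13.7%) were within 100 kb of the end of the assembled chromosome, against 3.78% of all features with a position. The coding sequences of *sul2* (chromosome I from 5505900 to 5508422, plus strand), SPAC869.01 (5521357 to 5523108, minus strand) and *pfl9* (5527692 to 5528672, plus strand) lie within one such region. SPAPB15E9.02c (3991878 to 3992444, minus strand) and SPAPB15E9.06 (3994002 to 3994271, plus strand) are neighbours on the same chromosome. The subtelomeric genes SPBC1348.04, SPBCPT2R1.04c and SPBPB8B6.05c had 100%, 87.5% and 85.8% of their 50-base windows elsewhere in the genome, so their reads cannot be assigned to these genes with certainty. Of the 51 members, 34 overlap another annotated gene, 16 of them over the whole coding sequence, mostly a noncoding RNA gene. *obr1*, *php4*, *met14* and SPBC1271.07c are overlapped in full, as are ribosomal members such as *rpp203*, *rps2802*, *rps2601* and *rpl1502*. Because the libraries did not keep the strand, reads from both genes cannot be told apart.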

How the data were processed

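RNA of 3 strains of *Schizosaccharomyces pombe* in 3 media was sequenced as 9 libraries, 1 for each condition. The authors trimmed reads with fastp, aligned them with HISAT2 to ASM294v2, handled alignments with SAMtools and counted reads per gene with featureCounts, and the versions of these tools are not given in the sources used here. The deposited values are TPM, which the authors made by dividing counts by gene length and scaling each library to the same total. The table also gives gene lengths, and 0 columns of per-sample values were left out. From the TPM steps and the lengths, whole reads were recovered for 100% of the values within a tolerance of 0.01. They gave exact Clopper-Pearson 95% intervals of ratios and 95% Poisson intervals of levels, and a floor of 3 reads where a library had 0.

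With 1 library for each condition no test was run and no p-value is given. Log2 differences are of TPM with a pseudocount of 1, and features under 5 TPM in both libraries compared were left out of counts of 2-fold differences. The members and the 17 gene lists were chosen with earlier results of these data known. Genes were named by rule: the 10 members highest in nitrogen-starved WT, the 10 with the largest smaller fold, members in lists, the 3 features nearest each threshold, the 5 members highest and the 5 lowest in double mutant over WT in each glucose medium, and the 4 most abundant other genes of lists with 2 members or more. Other genes, the ribosomal protein family definition and 3 of the sequence motifs were chosen after values were seen. Names, positions and promoter windows are from the RefSeq annotation of ASM294v3. Alternatives were other fold and TPM thresholds, pseudocounts, scalings and member sets. Intervals came from scipy (1.17.1), tables from pandas (2.3.3) with numpy (2.4.6), and plots from matplotlib (3.10.9), in Python 3.11.15, and the scripts were tested on simulated data.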

Additional observations from a re-analysis of the deposited data

Results flagged for a closer look

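The ratio of triple to double mutant, over 2 for each member under nitrogen starvation by the rule, was under 0.5 in a glucose medium for 3 members. For SPBC1271.07c, an N-acetyltransferase gene, it was 0.455 in glucose rich cells and 0.140 under glucose starvation, against 2.84 under nitrogen starvation. For SPBC1711.15c it was 0.321 in glucose rich cells and 0.107 under glucose starvation, against 2.39 under nitrogen starvation. For *rps2601*, a 40S protein gene, it was 0.307 under glucose starvation, against 2.72 under nitrogen starvation. With 1 library for each condition these differences between media were not tested.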

How the results depend on the processing

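No paired analysis was possible because each strain and medium had 1 library and so no replicate numbers to pair, and no replicate could be left out. Strains were compared within each medium. The 51 members became 195 with a fold threshold of 1.5, 15 with a threshold of 3 and 123 with no minimum TPM in nitrogen-starved WT. Counts were 38 with a minimum of 20 TPM, 42 with both lower 95% bounds over 2, 47 for protein-coding features, and 59, 56 and 48 under the other scalings. Of the 51 members, 46 were also chosen under median-of-ratios and 46 under upper-quartile scaling. All medians below are log2 differences over the members. With no minimum TPM the median for nitrogen-starved over glucose rich cells reversed in WT, at 0.32 against -1.75, and in the labelled triple mutant, at 0.11 against -1.56, and in the labelled double mutant it was -0.082 against -2.91. With a threshold of 3 these were 0.90 in WT and 0.16 in the labelled triple mutant, both reversed, and -0.13 in the labelled double mutant. These alternatives chose other genes.

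With median-of-ratios scaling the median was 0.084 for double mutant over WT in glucose rich cells (main value -0.085) and -0.51 under glucose starvation (-0.81). For triple over double mutant it was -0.29 in glucose rich cells (-0.18) and 0.81 under glucose starvation (0.17). For glucose-starved over glucose rich WT it was -1.32 (-1.02), and for nitrogen-starved over glucose rich cells -3.44 in the labelled double and -1.80 in the labelled triple mutant. With upper-quartile scaling the medians were 0.046 for double mutant over WT in glucose rich cells, 0.68 for triple over double mutant under glucose starvation, -1.26 for glucose-starved over glucose rich WT, and -3.43 and -1.89 for nitrogen-starved over glucose rich cells in the labelled double and triple mutants. With no minimum TPM the glucose starvation medians were -0.094 for double mutant over WT, 0 for triple over double mutant and -0.099 for WT over glucose rich WT. With a threshold of 3 they were -0.56 for double mutant over WT and 0.032 for triple over double mutant in glucose rich cells, -0.13 for glucose-starved over glucose rich WT and -0.33 for triple mutant over WT under nitrogen starvation. The other 62 of 90 alternatives stayed near their main values, and the causes of the differences between scalings were not tested. Reads of the 4 tRNA members in the nitrogen-starved labelled double mutant, 0 to 5, limit their ratios.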
